A study of Homo sapiens with 30 samples.

Results

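The 10 genes described here are transcription factors, chromatin proteins and RNA-binding proteins that mark pluripotent human stem cells: POU5F1, NANOG, SOX2, ZFP42, PRDM14, DNMT3B, DPPA2, DPPA4, LIN28A and L1TD1. They were taken by their gene symbols, and all 10 of 10 were found among the 39126 genes of the whole-cell count table and, by the same Ensembl ID, among the 55548 genes of the nuclear count table. All 10 passed the filter on low counts in both tables. The RNA came from Hues6, a human embryonic stem cell line. Libraries labelled QKI KO and WT libraries were made at day 0 (D0, undifferentiated cells), day 4 (D4, cardiac progenitor stage) and day 8 (D8, cardiomyocyte stage), with 3 libraries per genotype and day, and nuclear RNA was sequenced at D8 with 3 libraries per genotype. QKI is an RNA-binding protein of the STAR family that regulates splicing. Differentiation began with CHIR, an inhibitor of GSK3 that activates WNT signalling, at 1.25 uM for KO cells and 1.5 uM for WT cells, with 1.5 ng/mL BMP4 for both, followed by the WNT secretion inhibitor C59 at 100 nM for both. At D4 and D8 genotype and CHIR dose therefore cannot be told apart. Whether the 3 libraries of a group came from separate cultures, or from how many KO clones, is not stated in the labels, so p-values measure the spread between these libraries, which may be technical. A further set of libraries from 293T, an embryonic kidney line, given an siRNA against QKI or a control siRNA, enters only through a table of exons.

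POU5F1 (OCT4), SOX2 and NANOG form the core transcription factor circuit of pluripotent cells: they bind their own and each other's regulatory regions and hold the cell in a self-renewing state. Around this core stand ZFP42 (REX1) and PRDM14, 2 further DNA-binding proteins, DNMT3B, a de novo DNA methyltransferase, DPPA2 and DPPA4, which act as a pair at chromatin, and LIN28A and L1TD1, which bind RNA. LIN28A is known for blocking the maturation of let-7 microRNAs. In differentiation to mesoderm and heart these genes are normally shut down, each at its own pace.

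The depth of the whole-cell libraries was 40001076 to 89948185 counts. In nuclear RNA it ran from 9882089 to 15030590 in the libraries labelled KO and from 6549676 to 8896202 in the WT libraries. Levels are CPM, the share of a library's counts scaled to a common total by the TMM method, given as mean ± SD of 3 libraries. QKI itself stood at 39.4 CPM in KO and 293 CPM in WT at D0, and at 78.2 CPM in KO and 146 CPM in WT at D4. At D8 it stood at 335 ± 5.30 CPM in the libraries labelled KO and 324 ± 41.9 CPM in WT (n = 3 each, edgeR adjusted p 0.66), and in nuclear RNA at 505 CPM in the libraries labelled KO and 160 CPM in WT. The gene's level at D8 thus does not follow the label; a count over the whole gene does not show whether the RNA is intact, and the D8 groups are called by their labels. As a check of the stage, the sum of 8 cardiomyocyte markers was 28390 ± 2468 CPM in the D8 libraries labelled KO and 12680 ± 3511 CPM in D8 WT (n = 3 each), while at D0 it was 8.57 CPM in KO and 5.92 CPM in WT. At D8, 6 of the 8 were called higher in the libraries labelled KO, 1 lower and 1 not called: MYH6, the atrial myosin heavy chain, stood at 18030 CPM in the libraries labelled KO and 8318 CPM in WT, and ACTN2, a Z-disc protein, at 95.5 CPM in the libraries labelled KO and 402 CPM in WT.

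At D0, the pluripotent stage, levels per kilobase of exon were highest for POU5F1 and lowest for ZFP42 in KO. POU5F1 gave 771 CPM per kb in KO and 732 CPM per kb in WT, followed by LIN28A with 589 CPM per kb in KO and 538 CPM per kb in WT. DNMT3B gave 451 CPM per kb in KO and 221 CPM per kb in WT, and L1TD1 394 CPM per kb in KO and 283 CPM per kb in WT. DPPA4 (216 in KO, 225 in WT) and SOX2 (145 in KO, 141 in WT) followed on the same scale, and PRDM14 (30.7 in KO, 18.6 in WT), DPPA2 (23.4 in KO, 14.4 in WT) and NANOG (16.7 in KO, 18.5 in WT) were lower. ZFP42 gave 10.3 CPM per kb in KO and 39.1 CPM per kb in WT. Exon lengths are those of GENCODE release 29, so this order rests on an annotation that need not be the one used for counting.

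The core factors stood close together in both genotypes at D0. POU5F1 had 2009, 2199 and 2494 CPM in KO, against 2036, 2064 and 2262 CPM in WT. SOX2 had 342.6, 361.2 and 390.5 CPM in KO, against 366.1, 334.4 and 364.6 CPM in WT. NANOG had 88.6, 88.4 and 92.4 CPM in KO, against 96.6, 99.2 and 103.4 CPM in WT. The KO and WT libraries overlapped for POU5F1 and SOX2 but not for NANOG, which lay slightly lower in all 3 KO libraries. None of the 3 passed the test (edgeR log2 fold changes 0.08 ± 0.12, 0.04 ± 0.08 and -0.15 ± 0.09 (SE), adjusted p 0.66, 0.73 and 0.21, in the order POU5F1, SOX2, NANOG).

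The promoters of NANOG and SOX2 are shown because both hold a POU-type motif of the kind POU5F1 binds and a SOX-type motif, both in capitals. They are the 300 bases from 250 before to 50 after the start, from RefSeq on GRCh38.p14 (NANOG chr12:7789152-7789451, plus strand; SOX2 chr3:181711675-181711974, plus strand).
NANOG promoter: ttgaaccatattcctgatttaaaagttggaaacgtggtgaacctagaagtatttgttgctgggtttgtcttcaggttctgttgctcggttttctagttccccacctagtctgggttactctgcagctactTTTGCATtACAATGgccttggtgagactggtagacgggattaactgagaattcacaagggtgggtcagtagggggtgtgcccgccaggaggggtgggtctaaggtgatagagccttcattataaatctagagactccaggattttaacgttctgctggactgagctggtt
SOX2 promoter: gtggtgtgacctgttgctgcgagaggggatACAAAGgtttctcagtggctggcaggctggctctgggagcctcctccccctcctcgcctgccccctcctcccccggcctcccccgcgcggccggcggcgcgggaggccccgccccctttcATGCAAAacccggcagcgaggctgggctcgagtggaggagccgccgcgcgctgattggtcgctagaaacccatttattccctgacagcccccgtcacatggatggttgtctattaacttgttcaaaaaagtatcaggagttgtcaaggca
In NANOG the POU motif, on the opposite strand as TTTGCAT, starts 120 bases before the start site and ACAATG 112 bases before it, without overlap. In SOX2 the motif ACAAAG starts 220 bases and ATGCAAA 100 bases before the start site. Of the 10 genes, 7 had a promoter in the table, and the motif ATGCAAA was found on either strand in 2 of these 7, against 4.46% of 35116 promoters. ACAATG was found in 1 of the 7, against 10.8% of all promoters, and ACAAAG in 5 of the 7 (DNMT3B, DPPA2, L1TD1, SOX2 and ZFP42), against 16.1%. These matches describe letters in a window and no binding was measured.

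Outside the core, the QKI KO cells differed from WT before differentiation began, and ZFP42 and DNMT3B moved in opposite directions. ZFP42, a zinc finger protein long used as a marker of undifferentiated cells, had 26.2, 28.2 and 27.4 CPM in KO, against 104.9, 102.8 and 104.1 CPM in WT. DNMT3B had 2176, 1941 and 2149 CPM in KO, against 1074, 1056 and 945.5 CPM in WT. For both genes the KO and WT libraries were far apart and did not overlap. ZFP42 fell by 1.93 ± 0.13 (SE) on the log2 scale (edgeR adjusted p 4.4e-10), and DNMT3B rose by 1.03 ± 0.09 (adjusted p 1.1e-08). PRDM14, a PR-domain factor that represses differentiation genes, had 74.7, 68.9 and 81.7 CPM in KO, against 45.7, 47.7 and 43.0 CPM in WT. It was higher in all 3 KO libraries, with a log2 fold change of 0.72 ± 0.09 (edgeR adjusted p 2.1e-06). DPPA2 rose by 0.70 ± 0.11 (adjusted p 3.5e-05), whereas its partner DPPA4 stood at 1079 ± 51.9 CPM in KO and 1122 ± 19.8 CPM in WT and did not pass the test (-0.06 ± 0.07, edgeR adjusted p 0.57). L1TD1 rose by 0.48 ± 0.15 (edgeR adjusted p 0.015), a call that was lost without the second WT library (0.43, adjusted p 0.061). LIN28A had 2361 ± 61.6 CPM in KO and 2155 ± 29.5 CPM in WT, without overlap, and did not pass the test (0.13 ± 0.08, edgeR adjusted p 0.18). In all, 4 of the 10 genes were called higher and 1 lower at D0, against 21.4% of all genes called higher and 20.9% called lower, so a share of calls near 42.3% is the background. The genes' median log2 fold change was 0.10, beside -0.01 over all genes tested.

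**Figure D1:**
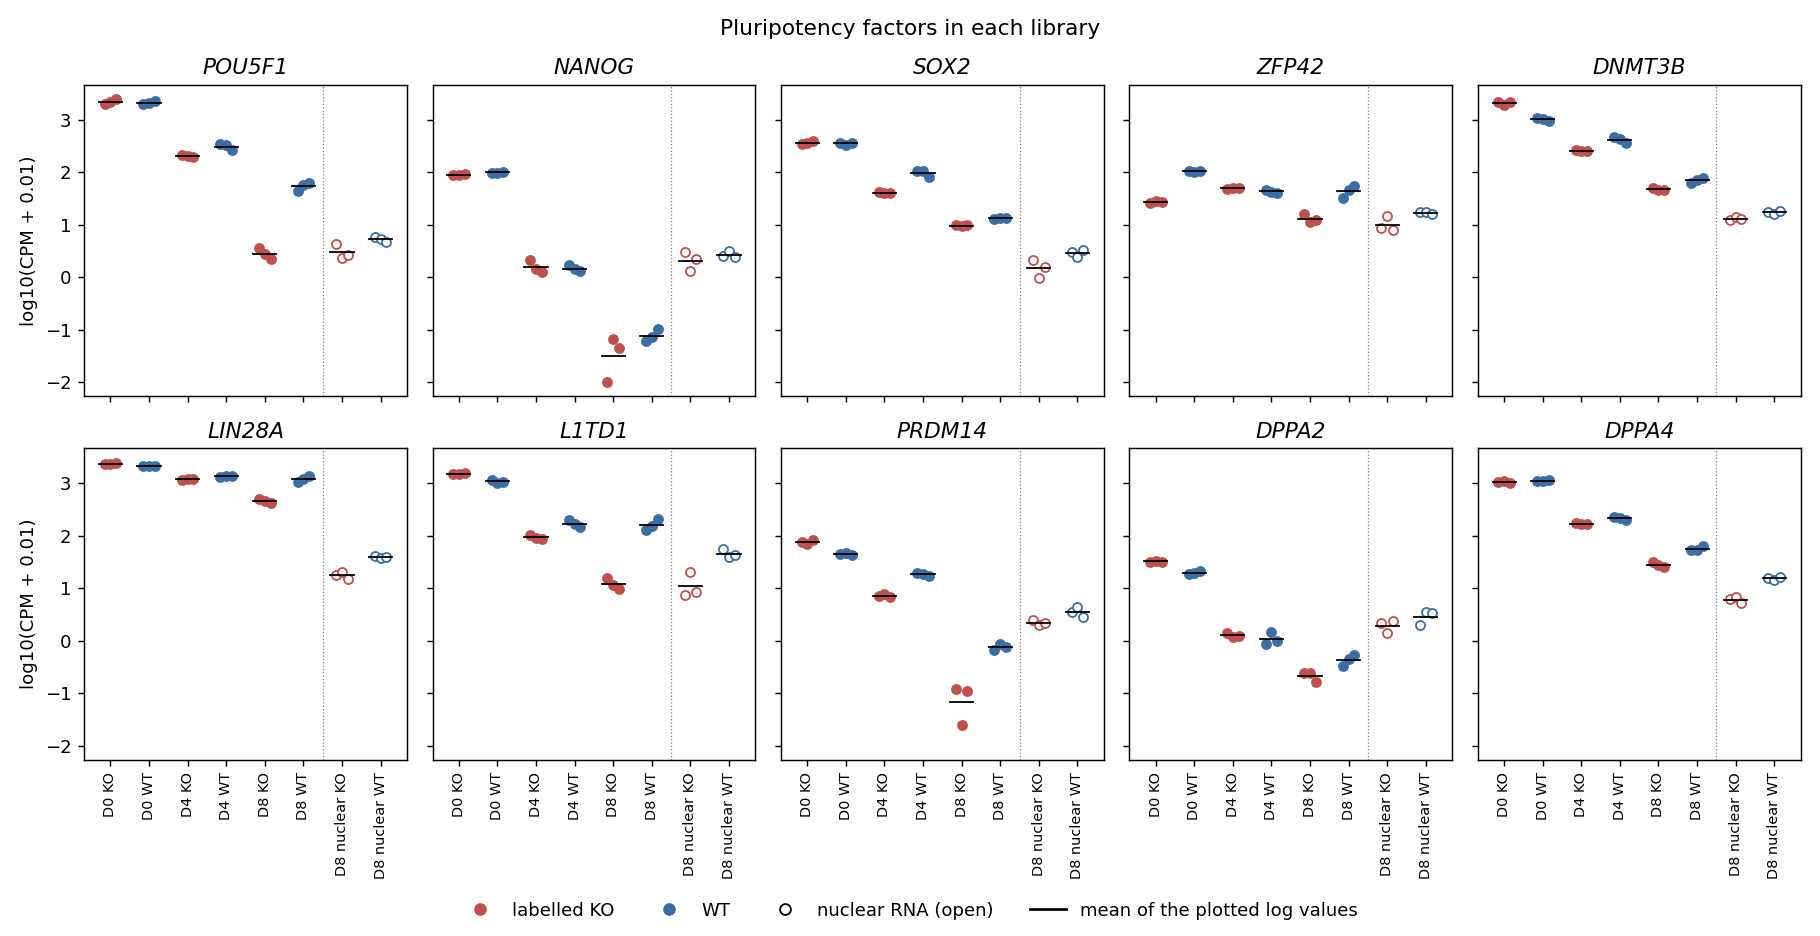
Level of each of the 10 genes in every library, as log10(CPM + 0.01), with KO left of WT on each day; open circles are D8 nuclear RNA, a separately scaled table. Bars are means of the plotted log values; ZFP42 is low in KO at D0, and POU5F1, L1TD1 and PRDM14 lie well below WT in the libraries labelled KO at D8.

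Every gene of the set but ZFP42 in KO was lower at D4 than at D0 in both genotypes. In WT all 10 were called lower, against 39.1% of all genes (81.0% called in either direction, 42.0% higher). In KO 9 were called lower and 1 higher, against 38.5% called lower, 44.1% called higher and 82.6% called in either direction over all genes. These comparisons share libraries with those between genotypes, so their values are given side by side. NANOG, a homeodomain factor, declined the most: its D4 mean was 1.74% of its D0 mean in KO and 1.46% in WT. DPPA2 was at 3.91% of D0 in KO and 5.48% in WT. POU5F1 was at 9.12% of D0 in KO and 14.7% in WT. LIN28A declined the least among the genes that were lower in both genotypes, to 50.2% of D0 in KO and 63.0% in WT. ZFP42 rose in KO, to 180.7% of its D0 mean (log2 fold change 0.85 ± 0.13 SE, edgeR adjusted p 2.8e-06), whereas in WT it was at 41.8% of D0 (-1.26 ± 0.13, adjusted p 7.5e-09).

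At D4, 6 of the 10 genes were lower in KO than in WT, none was called higher, and 12.0% of all genes were called lower (28.4% in either direction). SOX2, a HMG-box factor that pairs with POU5F1 on DNA, had 43.0, 39.8 and 40.8 CPM in KO, against 106.9, 105.3 and 81.8 CPM in WT. PRDM14 had 7.00, 7.60 and 6.67 CPM in KO, against 19.7, 19.1 and 17.2 CPM in WT. All KO libraries lay below all WT libraries for both genes, which fell by 1.25 ± 0.08 (SOX2, edgeR adjusted p 4.1e-10) and by 1.40 ± 0.10 (PRDM14, adjusted p 2.4e-09) on the log2 scale. POU5F1 had 210.9, 205.8 and 194.4 CPM in KO, against 341.4, 330.7 and 262.9 CPM in WT, and fell by 0.61 ± 0.12 (edgeR adjusted p 6.7e-04). DNMT3B stood at 258 ± 4.56 CPM in KO and 423 ± 49.4 CPM in WT and fell by 0.71 ± 0.09 (edgeR adjusted p 2.0e-06). L1TD1 fell by 0.85 ± 0.15 (adjusted p 2.4e-04) and DPPA4 by 0.34 ± 0.07 (adjusted p 0.0012, both edgeR). ZFP42, LIN28A, DPPA2 and NANOG did not pass the test (edgeR log2 fold changes 0.18, -0.19, 0.22 and 0.11 in that order). Of these, ZFP42 was higher in all 3 KO libraries (47.5 to 50.3 CPM, against 41.1 to 46.7 CPM in WT). LIN28A was lower in all 3 (1151 to 1216 CPM in KO, 1330 to 1384 CPM in WT). The median log2 fold change of the 10 genes was -0.48, beside 0.00 over all genes. Since the RNA comes from whole cultures, fewer cells of a type and less RNA per cell cannot be told apart in these or later values. Markers of other cell types moved too. At D4 7 of 7 definitive endoderm markers were called higher in KO (summed level 387 to 421 CPM in KO, 167 to 198 CPM in WT). Of 7 cardiac progenitor markers 5 were higher and 1 lower, beside 16.3% of all genes called higher and 12.0% lower. Of 10 surface ectoderm and amnion markers 2 were higher and 4 lower (191.7 to 200.8 CPM in KO, 129.0 to 170.6 CPM in WT). Of 9 primordial germ cell markers tested 4 were higher and 3 lower (341.8 to 392.2 CPM in KO, 184.0 to 212.1 CPM in WT). Of 8 cardiomyocyte markers 3 were higher and none lower, and of 4 neural markers tested 1 was lower. Their part in the result was not tested.

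**Figure D2:**
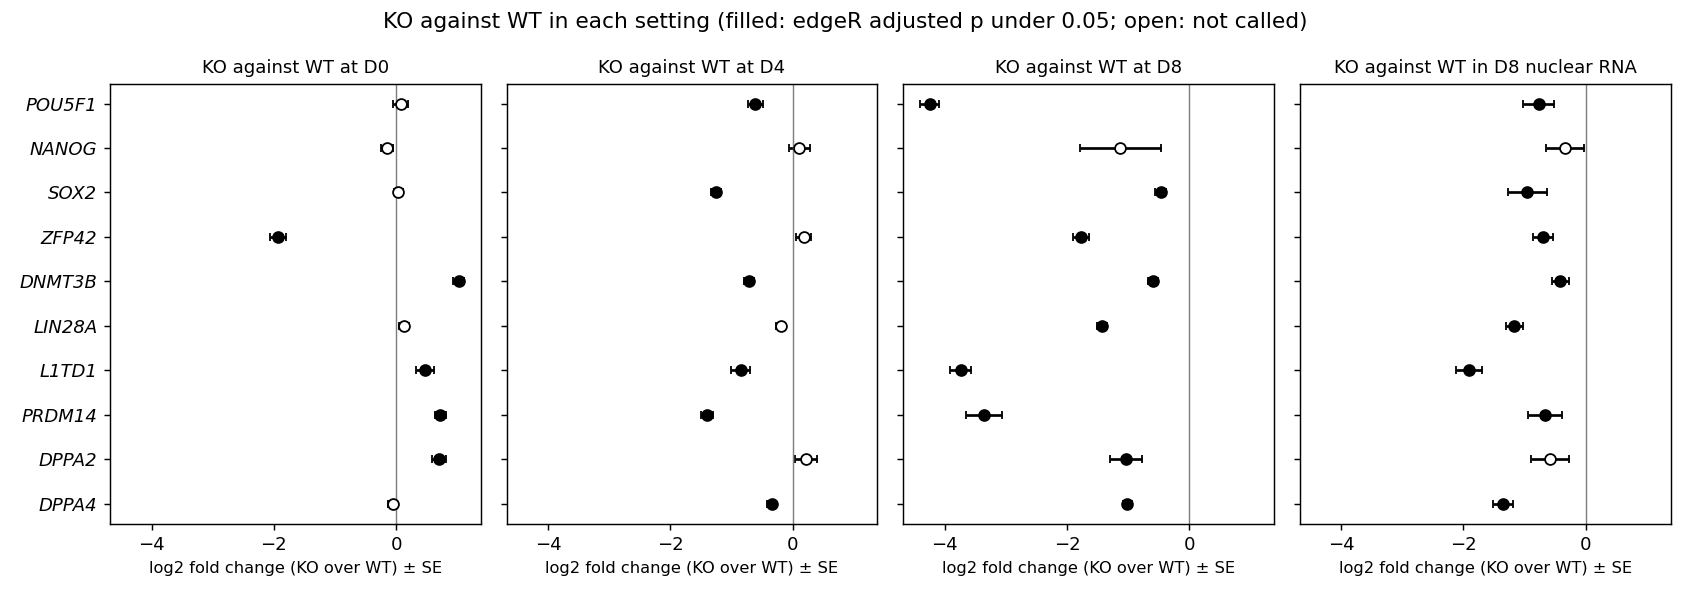
Log2 fold change of KO over WT with its standard error for the 10 genes (rows) at D0, D4, D8 and in D8 nuclear RNA (panels); filled points passed the edgeR test at an adjusted p under 0.05. Called points lie on both sides of 0 at D0 (4 higher, 1 lower) and only below 0 in the other panels.

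By D8 the libraries labelled KO held less RNA of 9 of the 10 genes, and POU5F1, L1TD1 and PRDM14 differed the most. POU5F1 had 3.62, 2.76 and 2.20 CPM in the libraries labelled KO, against 44.3, 56.6 and 62.4 CPM in WT. L1TD1 had 15.8, 11.4 and 9.49 CPM in the libraries labelled KO, against 127.8, 152.3 and 208.5 CPM in WT. The groups were well apart for both genes, and the lowest WT library was many times the highest KO one. POU5F1 fell by 4.25 ± 0.16 on the log2 scale (edgeR adjusted p 1.3e-14) and L1TD1, an RNA-binding protein derived from a retrotransposon, by 3.74 ± 0.17 (adjusted p 5.1e-13). PRDM14 was low in WT (0.661 to 0.862 CPM) and near the limit of detection in the libraries labelled KO. It had 14 reads over the 3 libraries labelled KO and 195 over the 3 WT libraries, and fell by 3.35 ± 0.30 (edgeR adjusted p 7.5e-09). LIN28A kept a high level: 506.2, 452.0 and 422.4 CPM in the libraries labelled KO, against 1084, 1238 and 1397 CPM in WT. It fell by 1.43 ± 0.08 (edgeR adjusted p 6.6e-12), without overlap. ZFP42 had 15.9, 11.5 and 12.0 CPM in the libraries labelled KO, against 33.1, 46.1 and 54.9 CPM in WT, and fell by 1.77 ± 0.13 (edgeR adjusted p 5.3e-10). DPPA4 fell by 1.01 ± 0.08 (adjusted p 6.8e-10), DPPA2 by 1.04 ± 0.26 (adjusted p 0.0020), DNMT3B by 0.59 ± 0.09 (adjusted p 8.4e-06) and SOX2 by 0.46 ± 0.09 (adjusted p 1.3e-04, all edgeR). NANOG had 6 reads in all over the libraries labelled KO and 18 over WT, and its difference was not detectable with so few reads (-1.12 ± 0.67, edgeR adjusted p 0.16). Over all genes 26.2% were called lower and 55.6% in either direction, and the median log2 fold change was -1.28 for the 10 genes and 0.01 over all genes. Scaled to total counts in place of TMM, 4479 of 11928 calls were higher at D8, beside 6396 of 12097 calls in the values above, and at D4 4347 of 5892 beside 3556 of 6171. The 10 genes kept their counts of 9 and 6 calls under that scaling.

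The share of the D0 level that was left at D8 was taken within each genotype, so it also depends on differences between the genotypes at D0. In WT, L1TD1 remained at 14.97%, LIN28A at 57.5% and ZFP42 at 43.0% of D0, and these 3 were the genes that did not pass the test between D8 and D4 in WT (edgeR log2 fold changes -0.06, -0.13 and 0.04, adjusted p 0.74, 0.14 and 0.78). In the libraries labelled KO, L1TD1 was at 0.807%, LIN28A at 19.5% and ZFP42 at 48.2% of D0, and all 10 genes were lower at D8 than at D4. WT had 7 genes lower, and of all genes 38.9% were called lower and 36.1% higher in KO (75.0% in either direction), and 33.8% lower and 35.0% higher in WT (68.8%). POU5F1 was left at 0.128% of D0 in the libraries labelled KO and 2.57% in WT. SOX2 was left at 2.63% of D0 in the libraries labelled KO and 3.72% in WT, and DNMT3B at 2.26% in the libraries labelled KO and 6.93% in WT. DNMT3B in KO stood at 203.7% of WT at D0, and its D8 level was 18.2% of D4 in the libraries labelled KO and 16.8% in WT. ZFP42 in KO stood at 26.2% of WT at D0 and at 29.4% at D8. The change in the difference between the genotypes was tested as an interaction: 8 of 10 genes passed it from D0 to D4, 7 of them lower and 1 higher, and 8 of 10 from D4 to D8, again 7 lower and 1 higher, against 39.1% of all genes in the first interval (19.1% lower) and 41.5% in the second (19.6% higher, 21.9% lower). The gene that moved upward was ZFP42 in the first interval and SOX2 in the second. In the first interval the call of DPPA4 was lost under total counts and in 8 of the 12 fits that left out 1 library (adjusted p 0.052 to 0.084), and that of LIN28A under total counts and without the first KO library of D4 (-0.31, edgeR adjusted p 0.052).

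**Figure D3:**
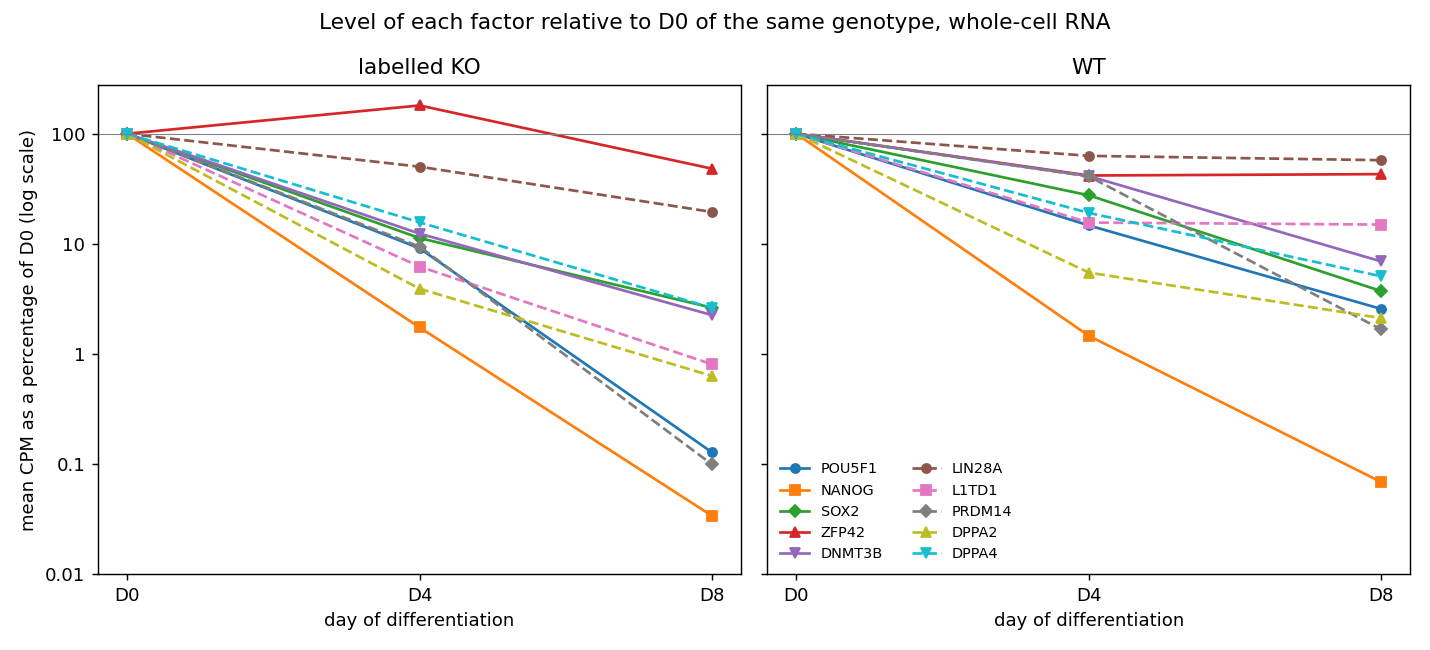
Mean CPM at D4 and D8 as a percentage of the D0 mean of the same genotype (log scale) for each gene, libraries labelled KO on the left and WT on the right. LIN28A, ZFP42 and L1TD1 run flat between D4 and D8 in WT, whereas all lines go down in that interval in KO.

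The same D8 libraries also differed in markers of other cells. All 10 of 10 surface ectoderm and amnion markers were called lower in the libraries labelled KO at D8, where 26.2% of all genes were called lower and 29.4% higher: their sum ran from 125.3 to 155.8 CPM there and from 805.7 to 1392 CPM in WT. Within WT the summed level of the 10 pluripotency genes was 1419, 1634 and 1879 CPM in the libraries whose amnion marker sums were 805.7, 1221 and 1392 CPM. In the libraries labelled KO the paired sums were 632.8, 561.3 and 526.9 CPM of pluripotency genes, and 155.8, 129.3 and 125.3 CPM of amnion markers. Most of each pluripotency sum was LIN28A, with 1084, 1238 and 1397 CPM in WT and 506.2, 452.0 and 422.4 CPM in the libraries labelled KO. In the same order the cardiomyocyte marker sums were 16090, 12860 and 9079 CPM in WT, and 25550, 29700 and 29930 CPM in the libraries labelled KO. Of 10 primordial germ cell markers, 3 were higher, 4 lower, 2 not called and 1 not tested, with NANOS3 at 0.341 CPM in the libraries labelled KO and 0.407 CPM in WT and DAZL at 0 CPM in the libraries labelled KO and 0.0484 CPM in WT. Among the lower were TFAP2C, also on the amnion list (1.57 CPM in the libraries labelled KO, 27.9 CPM in WT), and SOX15 (1.44 CPM in the libraries labelled KO, 15.6 CPM in WT), and KIT was higher (66.5 CPM in the libraries labelled KO, 46.6 CPM in WT). The germ cell sum ran from 82.9 to 99.6 CPM in the libraries labelled KO and from 103.2 to 110.9 CPM in WT. Definitive endoderm markers were higher in 7 of 7 cases (summed level 439.8 to 573.8 CPM in the libraries labelled KO, 210.1 to 223.1 CPM in WT). Of 8 neural markers 4 were tested: LHX2 (2.40 CPM in the libraries labelled KO, 0.127 CPM in WT), SOX3 (9.08 CPM in the libraries labelled KO, 4.30 CPM in WT) and POU3F2 (0.445 CPM in the libraries labelled KO, 0.164 CPM in WT) were called higher, and NES was not called. The neural sum, 929.1 to 1073 CPM in the libraries labelled KO and 806.9 to 970.7 CPM in WT, was nearly all NES (979 CPM in the libraries labelled KO, 891 CPM in WT). PAX6 (0.0204 CPM in the libraries labelled KO, 0.0481 CPM in WT), SOX1 (0.00563 CPM in the libraries labelled KO, 0.00839 CPM in WT) and NEUROG2 (0.0676 CPM in the libraries labelled KO, 0.0210 CPM in WT) were near 0 and not tested. The part of these cells in the result was not tested.

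In D8 nuclear RNA 8 of the 10 genes were called lower in the libraries labelled KO, against 32.8% of all genes called lower and 31.2% called higher (64.0% in either direction). L1TD1 had 7.35, 20.6 and 8.30 CPM in the nuclei labelled KO, against 55.0, 40.2 and 43.3 CPM in WT, and fell by 1.91 ± 0.21 (edgeR adjusted p 6.0e-09). LIN28A had 18.2, 20.1 and 14.7 CPM in the nuclei labelled KO, against 41.7, 37.8 and 39.4 CPM in WT, and fell by 1.17 ± 0.14 (edgeR adjusted p 1.5e-08). DPPA4, the chromatin partner of DPPA2, had 6.12, 6.81 and 5.15 CPM in the nuclei labelled KO, against 15.8, 14.1 and 16.4 CPM in WT, and fell by 1.35 ± 0.16 (edgeR adjusted p 3.1e-08). These 3 genes were clearly apart between the groups, and the second nuclear library labelled KO had the most L1TD1 of its group. That library also had the highest sum of surface ectoderm and amnion markers of its group: 190.6, 483.2 and 201.1 CPM in the nuclei labelled KO, against 927.7, 589.6 and 638.3 CPM in WT (9 of 10 markers called lower, 1 not called). The sum of the 8 cardiomyocyte markers was 15170 CPM in the nuclei labelled KO and 4162 CPM in WT, with 8 of 8 called higher. The part of these markers' cells in the nuclear result was not tested. POU5F1 fell by 0.77 ± 0.25, SOX2 by 0.96 ± 0.32, ZFP42 by 0.70 ± 0.17, PRDM14 by 0.67 ± 0.28 and DNMT3B by 0.42 ± 0.14 (edgeR adjusted p 0.0097, 0.011, 8.3e-04, 0.037 and 0.012). NANOG and DPPA2 did not pass (-0.33 and -0.59, edgeR adjusted p 0.34 and 0.092). The median over all genes was itself -0.27, and the 10 genes had a median of -0.73. Under DESeq2 3 of the 10 genes were called, all lower, and 10029 of its 11049 calls over all genes were higher, beside 9508 of 19515 in edgeR. Scaled to total counts, 9 of the 10 genes were called lower, and 5192 of 20266 calls over all genes were higher. Without the first WT nuclear library 5 of the 10 genes were called. Genes under 0.1 CPM in every whole-cell D8 library had a low nuclear signal: 6843 of them were tested, with a median of 1.31 CPM in the nuclei labelled KO and 2.08 CPM in WT, a median log2 fold change of -0.81 and 56.9% called lower. Their 90th percentile was 3.29 CPM in the nuclei labelled KO and 5.47 CPM in WT. The nuclear levels of POU5F1 (3.12 CPM in KO, 5.24 in WT), NANOG (2.17 CPM in KO, 2.69 in WT), SOX2 (1.53 in KO, 2.91 in WT), PRDM14 (2.22 in KO, 3.54 in WT) and DPPA2 (1.97 in KO, 2.94 in WT) lie under that percentile, and the part of this background in the nuclear result was not tested.

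Other genes of pluripotent cells, from a list of 30, were mostly higher in KO at D0 (20 higher, 3 lower, 7 not called). More were called lower than higher at D4 (6 higher, 16 lower, 8 not called) and D8 (6 higher, 14 lower, 10 not called). Over all genes 21.4% were called higher and 20.9% lower at D0, 16.3% higher and 12.0% lower at D4, and 29.4% higher and 26.2% lower at D8. At D0 GDF3, a TGF-beta family ligand, had 22.8 ± 1.73 CPM in KO and 9.83 ± 0.642 CPM in WT (log2 fold change 1.21, edgeR adjusted p 6.8e-07), and UTF1, a chromatin factor of stem cells, 1.52 CPM in KO and 0.668 CPM in WT (1.20, adjusted p 3.8e-04). ZIC2, a zinc finger factor, had 54.1 ± 5.77 CPM in KO and 121 ± 7.41 CPM in WT and fell by 1.16 (edgeR adjusted p 1.9e-09), and the tetraspanin CD9 fell by 0.43 (adjusted p 0.0020). At D4 the sialomucin PODXL fell by 1.27 (524 ± 36.9 CPM in KO, 1267 ± 315 CPM in WT, edgeR adjusted p 5.4e-08), and ZIC2 fell by 1.20 (adjusted p 3.7e-09), whereas GDF3 (1.71, adjusted p 1.4e-07) and OTX2 (0.66, adjusted p 1.7e-08) were higher. At D8 the long noncoding RNA ESRG had 0.0880 CPM in the libraries labelled KO and 5.91 CPM in WT (fell by 6.04, edgeR adjusted p 1.1e-15) and the secreted protein SFRP2 fell by 3.06 (adjusted p 5.0e-12). TDGF1 (CRIPTO), a co-receptor of NODAL, stood out in the other direction, with 57.7 ± 5.17 CPM in the libraries labelled KO and 16.4 ± 0.896 CPM in WT (1.81, edgeR adjusted p 1.2e-11). In nuclear RNA 11 were higher, 8 lower, 9 not called and 2 not tested, TDGF1 (2.01, edgeR adjusted p 8.7e-13) being higher and ZSCAN10 (-1.40, adjusted p 2.6e-04) and LECT1 (-0.97, adjusted p 0.023) lower. These nuclear counts are near the background of 31.2% called higher and 32.8% called lower.

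Of 14 genes of the naive state, 11 were tested in whole-cell RNA. At D0 6 were higher in KO and none lower, beside the same background of 21.4% and 20.9%, and DPPA3 (4.37 CPM in KO, 1.97 in WT, log2 fold change 1.15, edgeR adjusted p 6.8e-05) and DPPA5 (2.51 CPM in KO, 1.10 in WT, 1.19, adjusted p 2.4e-04) were among the 6. At D4 4 were higher and 1 lower (background 16.3% and 12.0%), with TBX3 (76.3 CPM in KO, 34.4 in WT, 1.15, edgeR adjusted p 5.5e-11), KLF5 (17.9 CPM in KO, 8.15 in WT, 1.13, adjusted p 1.0e-07) and SUSD2 (-0.81, adjusted p 0.0071). TBX3 was near 0 in the stem cells at D0 (0.306 CPM in KO, 0.0715 CPM in WT). By D8 it stood at 156.5 CPM in the libraries labelled KO and 159.9 CPM in WT, so it rose with differentiation in both genotypes. KLF5 also rose from its D0 level (5.43 CPM in KO, 5.76 CPM in WT). At D8 3 were higher and 4 lower, near the background of 29.4% and 26.2%: NODAL (10.2 CPM in the libraries labelled KO, 2.72 in WT, 1.91, edgeR adjusted p 2.3e-06) and ESRRB (0.44, adjusted p 0.025) were named among the higher, and KLF4 (-2.06, adjusted p 6.0e-08) and TFCP2L1 (-1.71, adjusted p 9.9e-07) among the lower. In nuclear RNA, where 13 were tested, 3 were higher and 7 lower (background 31.2% and 32.8%), with TBX3 (0.69), KLF5 (0.63), ARGFX (-1.50) and KLF17 (-1.33) as named genes (edgeR adjusted p 3.4e-04, 0.0027, 0.0027 and 9.1e-05).

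Near-identical copies and overlapping genes can share reads with members. The NANOG copy NANOGP8 stood at 5.40 CPM in KO and 6.87 CPM in WT at D0, and NANOGP1 at 4.32 CPM in KO and 4.13 CPM in WT. At D8 NANOGP8 stood at 0.0164 CPM in the libraries labelled KO and 0.0347 CPM in WT. NANOGP1 stood at 0.0362 CPM in the libraries labelled KO and 0.0372 CPM in WT on that day. POU5F1B stood at 1.85 CPM in KO and 2.45 CPM in WT at D0, but at 4.73 CPM in the libraries labelled KO and 3.59 CPM in WT at D8, which is more than POU5F1 itself in the libraries labelled KO. SOX2-OT, which overlaps SOX2, had 5.06 CPM in KO and 4.27 CPM in WT at D0. The sources used here do not give how reads were divided among these genes, so low values of POU5F1 and NANOG at D8 are uncertain to that extent.

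ZFP42 followed a pattern of its own among the 10 genes. Over the 18 whole-cell libraries, which share day and genotype, its Pearson r with the other 9 ran from 0.400 (DPPA2) to 0.695 (LIN28A), on log2(CPM + 0.5), whereas the r among those 9 ran from 0.812 to 0.991. Of 10552 genes with at least 10 CPM on average, those most like ZFP42 were TCHP (0.952), PKIB (0.936) and CEP250 (0.912). For POU5F1 they were NCAPG, ERCC6L and SCG3 (r 0.995 each), for NANOG LINC00678 (0.999), RP11-267L5.1 (0.998) and VASH2 (0.997), and for SOX2 RCC2 (0.994) and SCGB3A2 (0.993). For DNMT3B they were ARNTL2, MCM3 and SPDL1, for LIN28A SNAP23, GPR63 and INPP5F, and for L1TD1 LBR, DIAPH2 and SNAP23. For PRDM14 they were MCM3, DPP3 and TEX15, for DPPA2 TRMT61B, MTHFD2 and ZNF281, and for DPPA4 CCNB1, XPO1 and ATR.

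Exons were described from the skipped-exon tables of D0, D4, D8 and 293T, each of which compares 2 arms of 3 libraries without naming them. Inclusion, from 0 to 1, is the level of the exon within one event, as deposited. It is not the plain share of inclusion reads among the junction reads printed beside it. An exon can be listed in several events with different neighbours, and its inclusion in one event is not its share of all transcripts. Differences are given as the second arm minus the first. At D8 all called events were DNMT3B exons, printed here because they carry the finding, in the order in which they lie along the gene (hg19 chromosome 20, plus strand: 31374308 to 31374433, 31381342 to 31381401, 31393144 to 31393213 and 31394015 to 31394133). The sequences are those of GENCODE release 29 transcripts, matched by the lengths of the exon and of its neighbours; for the 70-nt and 119-nt exons only one neighbour's length was matched. The 126-nt, 70-nt and 119-nt exons are exons 5, 20 and 21 of 22 in transcript DNMT3B-201, and the 60-nt exon is exon 10 of 23 in DNMT3B-202.
DNMT3B 126-nt exon: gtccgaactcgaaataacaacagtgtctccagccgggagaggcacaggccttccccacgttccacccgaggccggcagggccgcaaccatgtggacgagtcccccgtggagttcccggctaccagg
DNMT3B 60-nt exon: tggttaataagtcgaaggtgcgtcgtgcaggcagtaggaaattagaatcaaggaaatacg
DNMT3B 70-nt exon: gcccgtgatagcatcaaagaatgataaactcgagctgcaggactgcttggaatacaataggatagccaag
DNMT3B 119-nt exon: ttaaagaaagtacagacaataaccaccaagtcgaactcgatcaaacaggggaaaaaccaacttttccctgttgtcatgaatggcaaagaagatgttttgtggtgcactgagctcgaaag
The lengths 126 and 60 are multiples of 3, and the 70-nt and 119-nt exons together make 189 nt, also a multiple of 3. As background, the exon pair encodes part of the catalytic domain, and the isoform without it, DNMT3B3, is known to lack catalytic activity.

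In the authors' deposited table for D8 the 60-nt exon had inclusion levels of 0.535, 0.533 and 0.490 in the second arm, compared with 0.873, 0.922 and 0.921 in the first arm. All libraries of the second arm lay below all of the first, with a difference of -0.386 and an FDR listed as 0 in the authors' deposited table, from 364 inclusion and 209 skipping reads of the second arm and 1191 and 76 of the first. The authors' deposited table gives the 126-nt exon 0.724, 0.602 and 0.605 in the second arm, compared with 0.887, 0.932 and 0.947 in the first (difference -0.278, FDR listed as 0). For the 70-nt exon the authors' deposited table has 0.202, 0.165 and 0.178 in the second arm, compared with 0.481, 0.529 and 0.470 in the first (-0.312, FDR listed as 0). For the 119-nt exon it has 0.374, 0.233 and 0.2 in the second arm, compared with 0.548, 0.625 and 0.578 in the first (-0.315, FDR 5.6e-10 in the authors' deposited table). The groups did not overlap for any of the 4 exons. The 70-nt and 119-nt events use the same skipping reads (232 in the second arm, 225 in the first), so they are not independent. With other neighbours the same exons were mostly included in both arms: in the authors' deposited table the 60-nt exon had 0.938 in the second arm, compared with 0.984 in the first, in an event with fewer reads (130 inclusion and 5 skipping reads of the second arm, 459 and 5 of the first), and the 126-nt, 70-nt and 119-nt exons had 0.978 to 0.988 in the second and 0.995 to 1.00 in the first.

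At earlier days the same exons differed less. In the authors' deposited tables the 60-nt exon had 0.959 in the second arm, compared with 0.986 in the first, at D0 (-0.027) and 0.855 in the second and 0.917 in the first at D4 (-0.062, FDR 1.2e-04), both under the size of 0.1 used for a call. In the authors' deposited tables the 70-nt exon had 0.846 in the second arm, compared with 0.798 in the first, at D0 and 0.658 in the second and 0.571 in the first at D4 (0.087, FDR 0.12), so the sign at D4 was the opposite of that at D8. The 119-nt exon had 0.898 in the second and 0.875 in the first arm at D0, and 0.736 in the second and 0.655 in the first at D4, in the authors' deposited tables. In 293T the 60-nt exon was nearly always skipped, with 0.006 in the second arm, compared with 0 in the first, in the authors' deposited table, and the 70-nt exon had 0.039 in the second and 0.014 in the first. In 293T the 126-nt exon had 0.906 in the second arm, compared with 0.725 in the first, without a call (FDR 0.15 in the authors' deposited table). In the 60-nt event called at D8, the second arm held 2.28 times the reads of the first at D0, 0.618 times at D4 and 0.452 times at D8. The DNMT3B level in KO was 203.7%, 61.1% and 66.3% of WT on those days in CPM, which is scaled to library depth. The read ratios of the arms are not scaled. Unscaled DNMT3B counts over the 3 libraries were 332171 in KO and 159488 in WT at D0. They were 39741 in KO and 61091 in WT at D4, and 9112 in the libraries labelled KO and 18363 in WT at D8. No arm was assigned to a genotype.

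**Figure D4:**
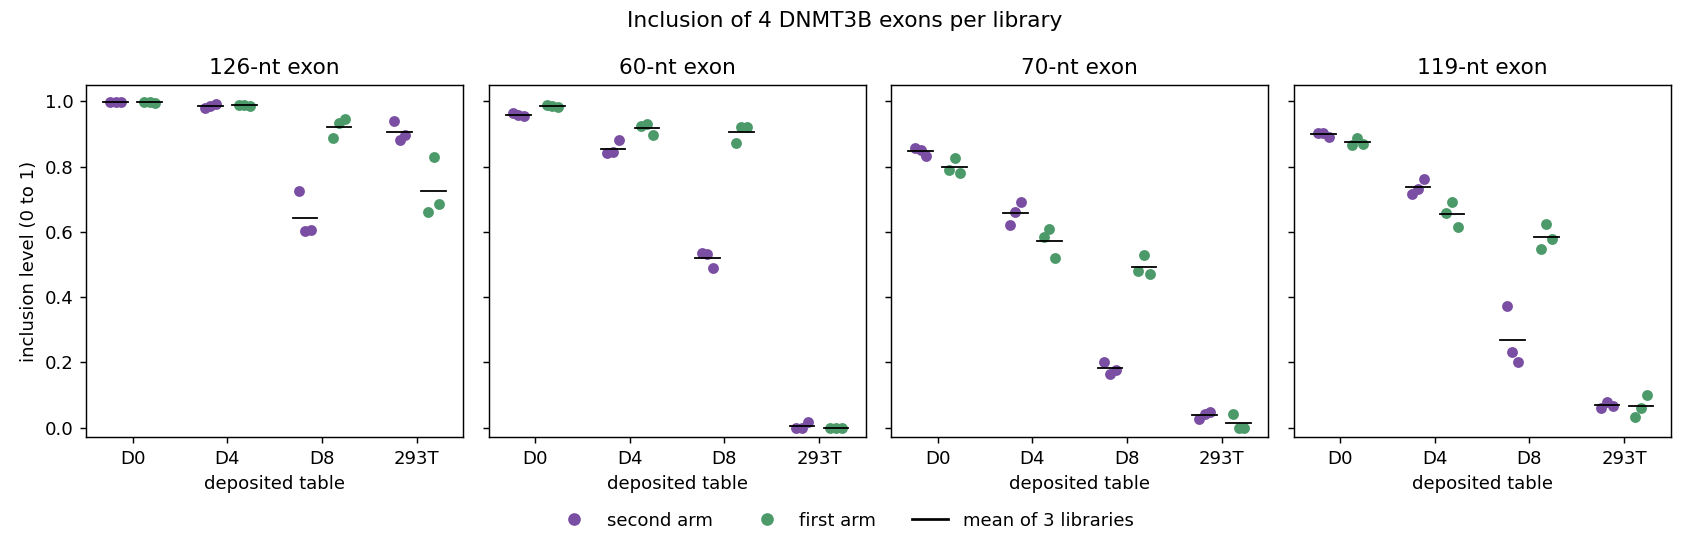
Inclusion level of 4 DNMT3B exons in each library of the deposited tables for D0, D4, D8 and 293T, with the second arm left of the first; bars are means of 3 libraries. The arms are far apart at D8 in all 4 panels and close together at D0.

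Of the events of the 10 genes with enough reads, 4 of 30 were called at D8 (13.3%, beside 2.23% of all events with enough reads) and 2 of 82 at D0 (2.44%, beside 2.37%). At D4 it was 0 of 33 (1.10% over all) and in 293T 0 of 9 (0.451% over all). The 30 events at D8 lay in DNMT3B (16), DPPA4 (10), L1TD1 (2) and ZFP42 (2). All 4 calls were in DNMT3B and 2 of them share skipping reads, so the D8 share describes that gene and not the set. At D0 the called events were a 51-nt exon of DPPA4 and a 108-nt exon of DNMT3B. In the authors' deposited table the DPPA4 exon (hg19 chromosome 3, minus strand, 109050581 to 109050631) had 0.502, 0.320 and 0.358 in the second arm, compared with 0.062, 0.065 and 0.082 in the first, a difference of 0.324 (FDR listed as 0), from 131 inclusion and 154 skipping reads of the second arm and 32 and 315 of the first. That event uses one rarely joined pair of neighbours: with another neighbour on one side the authors' deposited table gives the same exon 0.996 in the second arm (3994 inclusion reads), compared with 0.999 in the first (4243), and with the most used neighbours 1.00 in both arms (38771 inclusion reads of the second, 35511 of the first). In the authors' deposited table the DNMT3B exon (hg19 chromosome 20, plus strand, 31379407 to 31379514) had 1.00, 0.862 and 0.716 in the second arm, compared with 0.894, 1.00 and 1.00 in the first (-0.105, FDR 0.023), and there the libraries overlapped. The event had 103 and 97 inclusion reads; with another upstream neighbour the authors' deposited table gives this exon 0.998 in both arms (22061 inclusion reads of the second, 10146 of the first). No event of NANOG or SOX2 is listed in the tables. An exon of PRDM14 differed by -0.075 at D0 in the authors' deposited table, under the size used for a call.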

How the data were processed

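Poly(A) RNA of the whole-cell libraries and D8 nuclear RNA were sequenced, per the labels. The deposited tables hold whole-number read counts per gene, without normalisation. The build hg19 and the tools STAR, featureCounts, UMI-tools, cutadapt and DESeq are named in the submitters' processing notes. Versions, strand setting, annotation and the counting of shared reads: not given in the sources used here. Skipped-exon tables deposited by the authors hold junction reads, inclusion levels, p-values and FDR, and do not name their 2 arms. Recomputed differences matched the deposited ones within 0.0005 and are given as second minus first arm.

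For the gene tests, edgeR 4.0.16 under R 4.3.3 was run on the counts (filterByExpr, TMM, quasi-likelihood F-test, a mean for each group): 18 whole-cell libraries in 1 fit (21761 genes, biological coefficient of variation 8.23%) and 6 nuclear libraries in another (30481 genes, 11.9%). Calls needed a two-sided Benjamini-Hochberg adjusted p under 0.05 over all genes. The SE given with a log2 fold change was derived from the test, as the absolute log2 fold change divided by the square root of F. Exon calls needed FDR under 0.05, a difference of at least 0.1 and a mean of 10 junction reads per library in each arm. The procedure was tested on simulated data. Alternatives were DESeq2 1.42.0, other scalings and filters, a replicate block, single-day fits and leaving out each library.

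The members and lists were chosen with earlier results of these data known. All 10 members are named. Of the other lists, up to 2 called genes with the largest positive and 2 with the largest negative fold change are named per genotype comparison, given a mean of 1 CPM or more. For likeness, up to 3 genes with the highest r are named per member. Some genes these rules name are not reported here. The low nuclear signal was described after its values were seen. Nuclear and whole-cell levels come from separately counted tables and were not tested against each other. Sequences came from GENCODE release 29 and RefSeq GRCh38.p14.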

Additional observations from a re-analysis of the deposited data

Results flagged for a closer look

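The difference between the genotypes changed from one day to the next for most of the genes, by the edgeR interaction test, and each value is the later difference minus the earlier one on the log2 scale. From D0 to D4 it was -0.689 for POU5F1, -1.29 for SOX2, -1.74 for DNMT3B, -1.33 for L1TD1 and -2.12 for PRDM14. It was -0.326 for LIN28A and -0.286 for DPPA4, and 2.11 for ZFP42, the only one of the 8 that moved upward. The call of DPPA4 was lost under total counts and in 8 of 12 fits without 1 library, and that of LIN28A under total counts and without the first KO library of D4. From D4 to D8 it was -3.63 for POU5F1, -2.89 for L1TD1, -1.96 for PRDM14 and -1.95 for ZFP42. It was -1.26 for DPPA2, -1.24 for LIN28A and -0.668 for DPPA4, and 0.788 for SOX2. All groups held 3 libraries, so single libraries were not tested as outliers. CHIR dose differs with genotype at D4 and D8, and cannot be told apart from it.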

How the results depend on the processing

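Of 81 called pairs of gene and comparison, 73 kept their call in every setting tried and none reversed. Some values that did not pass above gained a call. These were 8 of 529 values under the other alternatives and 2 of 720 with 1 library left out. In nuclear RNA DESeq2 called 3 of the 10 genes in place of 8 (11049 calls over all genes in place of 19515), and leaving out single libraries gave 5 to 8. Calls were lost there in some setting for DNMT3B, POU5F1, PRDM14, SOX2 and ZFP42. Scaled to total counts, the change from D0 to D4 in the genotype difference was no longer called for DPPA4 (-0.19) and LIN28A (-0.23); leaving out single libraries ended the DPPA4 call in 8 of 12 fits (edgeR adjusted p 0.052 to 0.084) and the LIN28A call in 1 (-0.31, 0.052). The cause was not tested. Total counts also moved the split of calls over all genes for both interactions, to 5231 higher of 8317 beside 4352 of 8518 (D0 to D4) and to 2355 of 9444 beside 4267 of 9037 (D4 to D8).

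Values near 0 changed sign. ZFP42 between D8 and D4 in WT gave -0.00131 with DESeq2-style size factors and -0.00975 with the replicate block, and DNMT3B from D4 to D8 in the genotype difference gave -0.0923 with total counts. Leaving out single libraries gave -0.0096 to 0.148 for POU5F1 and -0.0108 to 0.0842 for SOX2 at D0, -0.167 to 0.254 for NANOG at D4, -0.131 to 0.220 for ZFP42 and -0.274 to 0.0903 for L1TD1 between D8 and D4 in WT, and -0.0178 to 0.405 for NANOG in the change from D0 to D4.

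Replicate numbers did not pair the libraries (correlations of same-numbered KO and WT libraries -0.167 to 0.141). With the replicate block the nuclear call of PRDM14 was lost (-0.66, edgeR adjusted p 0.060). Of the D0 exons 1 was left in place of 2 with a difference of at least 0.2, and 1 with an FDR under 0.01; with a difference of at least 0.05, 2 were called at D4 in place of 0. The test of NANOG at D8 rested on few reads in both genotypes (6 over the libraries labelled KO, 18 over WT). PRDM14 had few reads in the whole-cell D8 libraries labelled KO, and its difference ran from -3.75 to -2.83 over the settings tried.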
